A study of Mus musculus with 8 samples.

Results

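Matrix metalloproteinases and the tissue inhibitors that block them were described in the granule cell layer of the mouse dorsal dentate gyrus by 10 genes, out of 34614 genes in the gene table. The 7 protease genes were Mmp2, Mmp9, Mmp14, Mmp15, Mmp16, Mmp17 and Mmp24, and the 3 inhibitor genes were Timp2, Timp3 and Timp4. They were chosen by name, with earlier results of these data known. DNA methylation came from reduced representation bisulfite sequencing. The method cuts out CpG-rich fragments with a restriction enzyme, treats them with bisulfite and counts an unconverted cytosine as methylated. One library came from each of 4 male C57 BL/6 mice that had self-administered cocaine and each of 4 male C57 BL/6 mice given saline in the same procedure, with no other allele or agent in the labels and no age in the sources used here. The layer was dissected, so each library holds DNA of all cells in it, and a shift in the makeup of cells cannot be told apart from a shift within a cell type.

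Within the 10 genes and 5 kb either side, 1742 CpG cytosines were listed in at least 1 library and 1078 of them (61.9%) had 10 or more reads in all 8. These 1078 cytosines gave all values below. Median depth per cytosine there lay between 43 and 62 reads in the cocaine libraries and between 54 and 83 reads in the saline libraries. The library of saline 1 stood apart, since where the pooled level was 20% to 80% and 30 to 40 reads were counted, 14.3% of its values were exactly 0% or 100%. The remaining 7 libraries had 0.368% to 2.87% of such values. Where leaving out saline 1 moved the difference of an interior, or of a run given with its p, by more than 1.5 times, the value without it is given as well. Runs given by their levels alone are outside this rule. Mean methylation over all common cytosines of the genome was lower in 3 of the 4 cocaine libraries (36.5% to 37.5%) than in any saline library (37.9% to 38.3%), and cocaine 4 read 38.2%.

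Matrix metalloproteinases are zinc-dependent enzymes made as inactive precursors that cut proteins of the extracellular matrix and of the cell surface. Mmp2 and Mmp9 are secreted gelatinases, and Mmp9 is known in the hippocampus for its part in synaptic plasticity and in the turnover of perineuronal matrix. Mmp14, Mmp15, Mmp16 and Mmp24 encode proteases anchored by a transmembrane helix, and Mmp17 one anchored by a lipid. The tissue inhibitors bind the active site of these enzymes. Timp2 also takes part in the activation of the Mmp2 precursor by Mmp14, Timp3 stays bound to the matrix, and Timp4 is found in heart and brain. Methylation of a CpG-rich gene start goes as a rule with silence of the gene, while methylation within genes is common in active genes as well.

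The sequence around the starts shows what could be measured there. RefSeq start windows of GRCm38.p6, from 250 bases before to 50 bases after the start, were at hand for 6 of the 10 genes (Mmp14, Mmp15, Mmp24, Timp2, Timp3 and Timp4), and not for Mmp2, Mmp9, Mmp16 and Mmp17. Of 183466 common cytosines inside such windows of all genes, 183466 fell on a CG of the sequence, so the coordinates of files and table matched. The windows of 1 membrane protease with the densest CpGs, of a second membrane protease, of a CpG-rich inhibitor and of a CpG-poor inhibitor are printed 5′ to 3′ on the strand of the gene, with capitals for each CG read in all 8 libraries. Mmp24 lies on the plus strand at chr2:155775092-155775391, Mmp15 on the plus strand at chr8:95352046-95352345, Timp2 on the minus strand at chr11:118355362-118355661 and Timp4 on the minus strand at chr6:115252156-115252455.
Mmp24: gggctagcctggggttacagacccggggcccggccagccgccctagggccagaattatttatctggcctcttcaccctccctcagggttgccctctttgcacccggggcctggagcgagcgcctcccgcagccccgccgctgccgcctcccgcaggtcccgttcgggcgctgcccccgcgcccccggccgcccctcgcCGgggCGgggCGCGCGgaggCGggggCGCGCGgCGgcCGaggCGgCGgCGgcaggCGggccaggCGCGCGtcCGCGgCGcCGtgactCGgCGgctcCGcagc
Mmp15: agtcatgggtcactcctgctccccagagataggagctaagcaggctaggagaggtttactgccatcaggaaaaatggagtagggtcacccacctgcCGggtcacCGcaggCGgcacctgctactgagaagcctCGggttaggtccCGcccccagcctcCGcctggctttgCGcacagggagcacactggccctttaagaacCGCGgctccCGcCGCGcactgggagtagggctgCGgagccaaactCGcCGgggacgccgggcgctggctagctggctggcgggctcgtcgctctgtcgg
Timp2: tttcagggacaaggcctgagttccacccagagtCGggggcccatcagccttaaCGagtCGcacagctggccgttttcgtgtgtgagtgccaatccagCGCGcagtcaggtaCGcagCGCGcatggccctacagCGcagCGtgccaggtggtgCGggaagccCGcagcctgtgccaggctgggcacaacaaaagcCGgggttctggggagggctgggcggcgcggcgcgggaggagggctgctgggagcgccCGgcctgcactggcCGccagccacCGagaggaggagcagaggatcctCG
Timp4: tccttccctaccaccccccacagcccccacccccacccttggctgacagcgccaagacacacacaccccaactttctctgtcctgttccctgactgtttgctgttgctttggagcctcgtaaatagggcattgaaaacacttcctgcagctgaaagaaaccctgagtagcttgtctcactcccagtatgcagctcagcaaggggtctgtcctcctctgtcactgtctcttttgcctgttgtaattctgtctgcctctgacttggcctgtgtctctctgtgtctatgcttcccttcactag

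In the 300 bases of Mmp24 stood 44 CGs, of which 25 were read in all libraries. Mmp15 held 22 CGs with 15 read, and Timp2 held 25 with 17 read. Timp3 held 24 CGs with 4 read, and Mmp14 held 10 with none read. The Timp4 window held 2 CGs and none was read. Restriction fragments of this method usually begin at the letters CCGG, which reads the same on both strands and occurred in 52.8% of all 32851 start windows. CCGG occurred 5 times in Mmp24, 4 times in Timp3, 3 times in Mmp15, 2 times in Timp2, once in Mmp14 and not in Timp4. The GC box letters GGGCGG, searched on both strands, occurred 3 times in Mmp24, 2 times each in Mmp14 and Timp3, 1 time each in Mmp15 and Timp2 and not in Timp4, against 35.7% of all windows with at least 1. The AP-1 letters TGANTCA and the TATA letters TATAAA, also searched on both strands, were in none of the 6 windows, and were in 7.81% and 13.6% of all windows.

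At the start of Mmp24 the 45 cytosines read in this window, both strands counted, were almost free of methylation in 3 cocaine mice, at 0.0188%, 0.143% and 0.0340%, and read 1.41% in cocaine 4. The saline mice read 3.38%, 3.28%, 0.272% and 1.77%. Saline 1, 2 and 4 thus lay above the 4 cocaine mice and saline 3 among them, all at levels under 4%. At Mmp15 the 17 cytosines of the window read 0.218%, 2.10%, 0.113% and 0.0742% in the cocaine mice and 0.466%, 0%, 0.843% and 3.12% in the saline mice. At Timp2 the 19 cytosines read 0.0942%, 2.18%, 0% and 1.23% in cocaine and 0%, 0%, 0.147% and 0% in saline mice. Each cytosine at these 3 starts had a mean level under 5% over the 8 mice.

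Over wider windows of 1 kb either side of the gene end, the starts of all members with data were unmethylated to within a few percent. Of the 6 genes with a known strand, the starts of Mmp14, Mmp15, Mmp24, Timp2 and Timp3 held between 41 and 80 cytosines each. The start of Mmp14 read 0.959% ± 0.516 (SD, n = 4) in cocaine and 0.992% ± 0.238 in saline mice. The start of Mmp15 read 0.962% ± 0.523 and 0.552% ± 0.333, and that of Timp3 read 3.07% ± 0.734 and 3.34% ± 1.28. For Mmp2, Mmp16 and Mmp17, whose strand is not in the table used, the end of lower coordinate held 11, 51 and 78 cytosines and read 2.88% ± 0.961, 0.226% ± 0.129 and 1.41% ± 1.17 in cocaine mice. In saline mice these ends read 3.96% ± 2.41, 0.491% ± 0.809 and 1.21% ± 0.727. The ends of Mmp9, the start of Timp4 and the far ends of all members but Mmp15 had no cytosine read in all 8 libraries.

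Such low levels are common at gene ends. Of 20903 gene ends with at least 5 cytosines, 64.1% had a mean level under 5%. Only ends with a pooled level from 5% to 95% were tested, and none of the member ends was. Of the 7336 ends tested in the genome, 64.2% had the lower mean in cocaine mice, 5.78% had an unadjusted p under 0.05 (5.11% lower, 0.668% higher) and 1.23% one under 0.01. Without that filter the start of Mmp24 had the smallest p of the 8 member ends. It read 0.214%, 0.312%, 0.108% and 1.08% in the cocaine mice and 2.89%, 2.52%, 0.344% and 2.01% in the saline mice. Saline 3 overlapped the cocaine mice. The difference was -1.51 points, with an unadjusted p of 0.0107 and an adjusted p of 0.757. The start of Timp2 went the other way, at 0.860%, 1.16%, 0.818% and 1.22% in cocaine and 0.400%, 0.715%, 0.754% and 0.756% in saline mice. The 2 groups did not overlap there, yet the difference was 0.358 points with an adjusted p of 0.791 without the filter. Among the tested ends of the genome the groups did not overlap at 3.6% (2.97% lower in cocaine mice), and 0% were called, which took 5 points of difference besides an adjusted p under 0.05. The tested ends have pooled levels from 5% to 95% and hold neither of these starts. The share among ends under 5% was not counted.

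**Figure D1:**
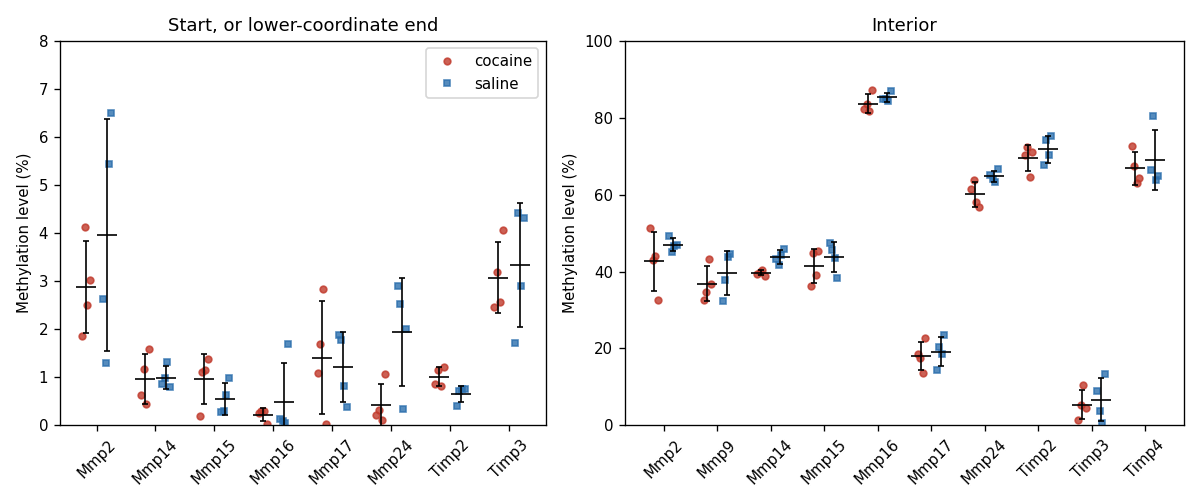
Methylation level in percent of each mouse (circles, cocaine; squares, saline) with the mean and SD of each group, at the start or lower-coordinate end (left) and in the interior (right) of each member with data. The axis on the left is stretched, since its highest value is 6.49% (Mmp2, saline 4), while the interior of Mmp16 averages 83.7% in cocaine mice.

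Levels rose with distance from the start. Common cytosines no more than 100 bp from the next one were joined into runs, and 128 runs touched the 10 genes or their flanks. A run that crossed the border of a flank was kept whole, which brings in the CpG-rich start of the neighbouring gene Slc12a5 at Mmp9. Of the 11 runs with their middle within 1 kb of a known start, 10 had a mean level under 5%. Of the 88 runs inside the genes, 60 had a mean level of 50% or more, and their median was 71.6%. At Mmp24 the run centred 8.5 bp from the start averaged 0.395% in cocaine and 2.19% in saline mice, while a run of 4 CpGs centred before the start, at -331 bp, averaged 16.4% and 18.4%. At Mmp14 the run of 59 CpGs that begins 260 bp after the start averaged 2.53% and 2.28%, and the next runs, centred 1344 bp and 2053 bp after it, averaged 21.8% and 14.7% in cocaine mice. The only tested Timp3 run, 3 CpGs before the gene at chr10:86298615-86298698, averaged 91.2% in cocaine and 88.1% in saline mice. Timp3 lies within the span of Syn3 and Timp4 within that of Syn2, so these cytosines belong to 2 genes each. Other genes also lie in the span or the 5 kb flanks of Mmp2 (Gm45472 and Lpcat2), Mmp14 (Mrpl52), Mmp15 (Usb1) and Timp2 (Cep295nl). Where the runs described below lie relative to these genes is not given here.

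**Figure D2:**
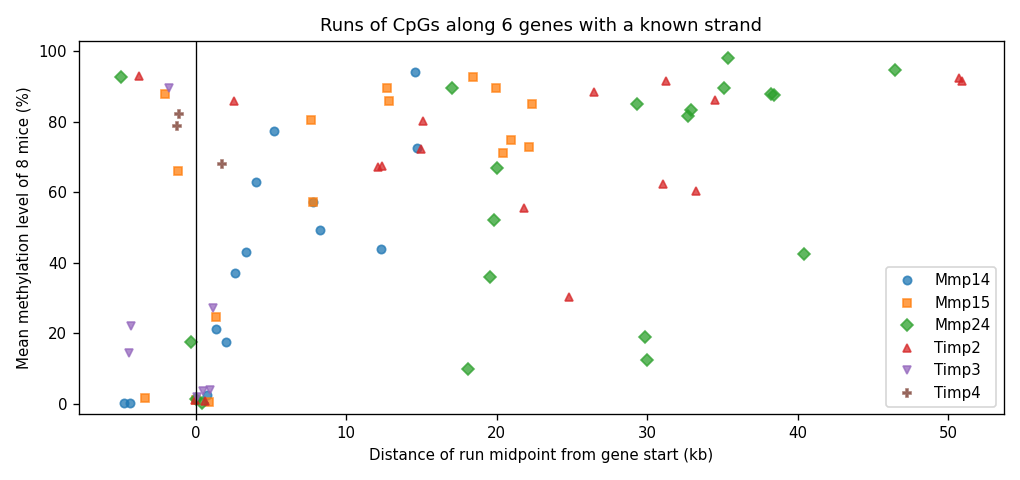
Mean methylation level over the 8 mice (percent, vertical axis) of each run of CpGs against the distance of its middle from the gene start in kb (horizontal axis, positive into the gene), for the 6 members with a known strand. Runs within 1 kb of a start lie near 0% except the Mmp24 run at 17.4%, and most runs further inside lie above 50%.

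Gene interiors, the span without 1 kb at each end, differed widely among the members. Mmp17 was the least methylated of the 8 interiors with at least 5 cytosines, at 18.1% ± 3.70 in cocaine and 19.2% ± 3.89 in saline mice over 84 cytosines. Mmp9 followed at 36.8% ± 4.55 and 39.7% ± 5.75, then Mmp14 at 39.6% ± 0.671 and 43.8% ± 1.78, Mmp15 at 41.4% ± 4.46 and 43.7% ± 3.89, and Mmp2 at 42.7% ± 7.69 and 46.9% ± 1.70. These 4 neighbours in the order overlapped among mice. Mmp24 read 60.0% ± 3.15 and 64.7% ± 1.38, Timp2 read 69.6% ± 3.40 and 71.8% ± 3.51, and Mmp16 was the most methylated at 83.7% ± 2.48 and 85.3% ± 1.21. The median over 16101 gene interiors was 67.6%. The interiors of Timp3 and Timp4 held 3 and 4 cytosines, too few for the test, and read 5.42% ± 3.80 and 66.8% ± 4.21 in cocaine mice against 6.68% ± 5.56 and 68.9% ± 7.80 in the 4 saline mice.

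All 8 tested interiors had the lower mean in cocaine mice, with differences from -1.12 points at Mmp17 to -4.68 points at Mmp24. Over the genome 71.2% of the 14641 tested interiors had the lower mean in cocaine mice, so this direction was common. The direction did not hold at Mmp15 with at least 20 reads (0.0624 points), nor at Mmp17 without cocaine 3 (0.356 points) or without saline 4 (0.330 points). Without saline 1 the difference went from -2.81 to -5.26 points at Mmp9, from -2.22 to -3.61 points at Timp2, from -1.12 to -2.77 points at Mmp17, and from -2.28 to -1.06 points at Mmp15. In the untested interior of Timp3 it went from -1.26 to -0.538 points. Averaged over the 8 interiors, the cocaine mice read 49.0%, 49.95%, 48.1% and 48.9% and the saline mice 50.5%, 51.7%, 51.8% and 53.5%. The groups did not overlap in this average, with a difference of -2.89 points, while over all interiors they did, with a difference of -1.35 points. How often other sets of 8 interiors separate the groups was not tested, and these genes were chosen with earlier results of these data known. No member interior was called, nor had one an unadjusted p under 0.05. Of all interiors 0% were called and 6.8% had such a p. At Mmp14, whose product is the main activator of Mmp2, the cocaine mice read 39.4%, 40%, 40.3% and 38.8% and the saline mice 43.2%, 41.7%, 44.4% and 45.9%. The groups did not overlap there, as at 4.38% of all interiors (3.93% lower in cocaine mice), and the difference of -4.15 points had an unadjusted p of 0.0514 and an adjusted p of 0.720. The unadjusted p was 0.00398 with its own dispersion, 0.0465 without the level filter and 0.0985 with limma on logit values. With at least 20 reads per cytosine the difference was -1.31 points (adjusted p = 0.927). At Mmp24 the cocaine mice read 61.6%, 63.7%, 58.1% and 56.8% and the saline mice 65.0%, 63.9%, 63.4% and 66.5%, with cocaine 2 overlapping the saline range. That difference was -4.68 points (adjusted p = 0.720). Among the cell type lists, the mean over the interiors of the 4 astrocyte genes Gfap, Aldh1l1, Aqp4 and Slc1a2 also did not overlap between groups, though 3 of the 4 were lower in cocaine mice, with cocaine mice at 37.2% to 39.7% and saline mice at 41.4% to 44.8%. The mean over 4 interiors of granule cell genes read 18.3% to 24.8% and 20.9% to 22.9%. The groups overlapped in this mean and in those of the pyramidal, interneuron, oligodendrocyte, microglia and endothelial lists. How often means over 4 interiors separate the groups over the genome was not counted. The part of cell makeup in the results on the members was not tested.

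Of the 128 runs, 52 had at least 3 CpGs and a pooled level from 5% to 95% and entered the test over 92484 runs of the genome. Of the others, 54 held fewer than 3 CpGs and 22 had a pooled level under 5%. Among these untested runs the cocaine mean was lower in 28 of the 54 and in 13 of the 22. Their median differences were -0.300 and -0.143 points, so the direction of the tested runs given below was weaker there. A call took an adjusted p under 0.05 and 10 points of difference, which none of the 52 and 0% of all runs reached. The cocaine mean was lower in 39 of the 52, or 75%, against 61.8% of all tested runs. The median difference was -2.72 points over the 52 and -1.06 points over all tested runs. An unadjusted p under 0.05 was reached by 7 of the 52 runs, 13.5%, against 5.65% of all runs. The groups did not overlap in 1 of the 52 runs, against 3.29% of all runs. The 10 genes were chosen with earlier results of these data known, among them 1 of the 7 runs. The shares among the 52 are thus no independent evidence for the group. Of the 7, 6 were lower in cocaine mice and 1 was higher, where over the genome 4.57% of runs were lower and 1.08% higher at that p. All 7 lay inside the genes, as did 44 of the 52 tested runs. The protease genes held 40 tested runs with 31 lower and 5 at that p, and the inhibitor genes 12 with 8 lower and 2 at that p. Without saline 1 the count was 9 of 53, or 17.0% against 6.12% of all runs, all 9 lower in cocaine mice, but it shared only 3 runs with the first 7. Without cocaine 3 it was 4 of 52 with 2 shared, or 7.69% against 4.99% of all runs.

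**Figure D3:**
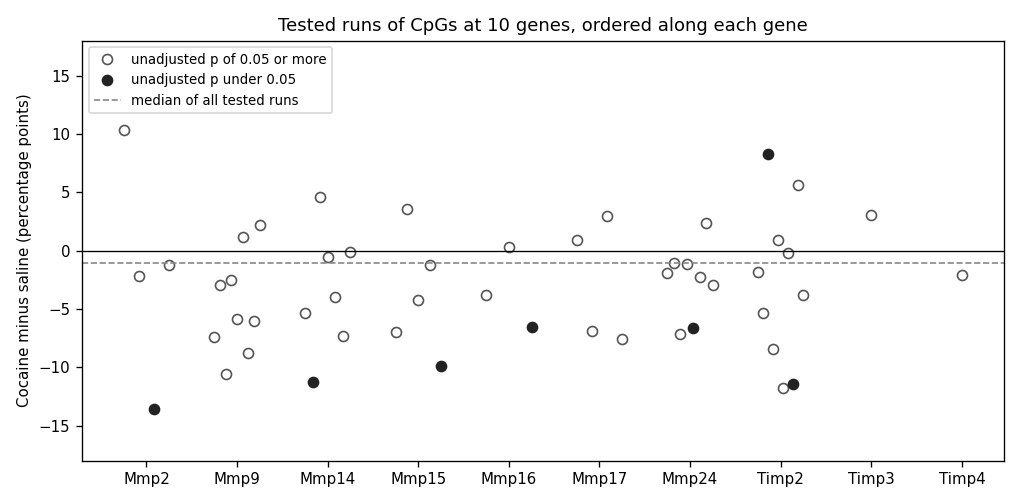
Difference in mean methylation level, cocaine minus saline in percentage points (vertical axis), of the 52 tested runs grouped by gene and ordered along it. Filled circles mark the 7 runs with an unadjusted p under 0.05, and the dashed line marks the median of all tested runs at -1.06 points; 39 of the 52 lie below 0.

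An unadjusted p under 0.01 was reached by 2 member runs, in Mmp24 and Mmp2, and by 1.09% of all tested runs. The run of smallest p lay in Mmp24, which encodes MT5-MMP, a membrane protease found mostly in the nervous system. It covers 11 CpGs at chr2:155810236-155810599, 34894 bp from the start of the gene. The cocaine mice read 89.7%, 83.9%, 86.1% and 85.0% and the saline mice 95.3%, 90.5%, 92.0% and 93.5%. Every cocaine mouse lay below every saline mouse, as in 2.59% of all tested runs (3.29% in either direction), and the difference was -6.66 points (unadjusted p = 0.00305, adjusted p = 0.876). The cocaine mean was lower at 13 of its 14 cytosines, but single cytosines differed by between -13.5 and 14.6 points and the groups were apart at 1. The unadjusted p stayed under 0.05 in each of 15 alternative fits, 8 of which left out a library. The unweighted mean of its cytosines gave a smaller difference, -4.40 points, with an exact permutation p of 0.0571 (two-sided). This run was known from earlier work on these data when the genes were chosen, so it is no independent evidence for the group. The table places Gm46772 and BC029722 within the same span, both outside this run.

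In Mmp2, the gelatinase that Mmp14 activates, 4 CpGs at chr8:92847468-92847606 read 15.4%, 25.2%, 29.9% and 16.1% in cocaine mice and 42.3%, 24.9%, 36.4% and 37.5% in saline mice. Saline 2 lay within the cocaine range and the other 3 saline mice above it. The difference of -13.6 points had an unadjusted p of 0.00765 and an adjusted p of 0.876, and this unadjusted p also stayed under 0.05 in 15 of 15 alternative fits. The unweighted mean of its cytosines differed by -12.2 points, with an exact permutation p of 0.0571. The cocaine mean was lower at 4 of its 5 cytosines and higher at 1, by 2.93 points. The groups were apart at 1 of the 5, base 92847606 on the minus strand, which also had the largest difference, -28.4 points. The share of such cytosines over the genome was not counted. Another Mmp2 run of 7 CpGs, which begins 1313 bp into the span at chr8:92828603-92828700, had the largest difference upwards of the 52 tested member runs. It read 29.9%, 11.2%, 3.23% and 27.6% in cocaine and 0.840%, 10.1%, 14.9% and 4.76% in saline mice. Its difference was 10.3 points (unadjusted p = 0.112), and the groups overlapped.

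In Mmp16, another membrane protease, the run at chr4:18021590-18021738 with 11 CpGs read 80.6%, 87.4%, 82.7% and 94.0% in cocaine and 95.8%, 89.5%, 94.0% and 91.9% in saline mice. Cocaine 4 lay in the saline range. The cocaine mean was lower at all 15 cytosines, and the difference was -6.59 points (unadjusted p = 0.0142, adjusted p = 0.876). Its unadjusted p was over 0.05 without cocaine 1, without cocaine 3, with own dispersions and with limma on logit values. In Mmp14 the run of 4 CpGs at chr14:54434107-54434274, 2509 bp from the start, read 25.2%, 40.7%, 26.6% and 32.9% in cocaine and 47.3%, 41.4%, 39.0% and 42.8% in saline mice. Cocaine 2 overlapped the saline mice. The cocaine mean was lower at all 5 cytosines, and the difference was -11.3 points (unadjusted p = 0.0479, adjusted p = 0.876). In Mmp15, which encodes MT2-MMP, 3 CpGs at chr8:95372718-95372758 read 63.0%, 77.8%, 64.4% and 59.1% in cocaine and 82.9%, 75.7%, 69.3% and 76.0% in saline mice. Cocaine 2 again lay in the saline range, and the difference was -9.91 points (unadjusted p = 0.0420, adjusted p = 0.876). With gaps of up to 200 bp the run grew and its difference was -3.73 points. The unadjusted p of the Mmp14 and of the Mmp15 run stayed under 0.05 in only 2 of the 8 fits that left out a library. For the unweighted mean of cytosines the exact permutation p was 0.0857 at the Mmp16 run, 0.0857 at the Mmp14 run and 0.114 at the Mmp15 run.

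Timp2 held runs that differed in both directions. The run of 8 CpGs at chr11:118320851-118320981 read 91.7%, 90.0%, 89.9% and 89.5% in cocaine and 67.2%, 90.0%, 83.2% and 87.6% in saline mice. The value of saline 1 stood far below the other 7. All 13 cytosines had the higher mean in cocaine mice, with a difference of 8.25 points (unadjusted p = 0.0407, adjusted p = 0.876), which was 3.29 points without saline 1. Its unadjusted p stayed under 0.05 in only 2 of the 8 fits that left out a library. It was over 0.05 with own dispersions, with limma on logit values and without the level filter. The unweighted mean of its cytosines differed by 8.44 points (exact permutation p = 0.0286). With 4 mice per group this two-sided test can give no smaller p. The run of 11 CpGs at chr11:118343153-118343438 read 62.7%, 60.0%, 57.0% and 66.2% in cocaine and 74.4%, 80.9%, 79.9% and 56.4% in saline mice, with saline 4 below all cocaine mice. The difference was -11.4 points (unadjusted p = 0.0292, adjusted p = 0.876). Its 16 cytosines did not move together, since 8 had the lower and 8 the higher mean in cocaine mice, from -36.2 to 27.2 points. At base 118343320 on the minus strand the cocaine mice read 50%, 42.0%, 50% and 22.6% and the saline mice 73.5%, 87.5%, 85.2% and 63.0%, without overlap. It was the only 1 of the 16 cytosines where the groups were apart, and the share of such cytosines over the genome was not counted. On the plus strand of the same CpG, base 118343319, the groups overlapped, with a difference of -17.9 points. The next CpG differed by 5.83 points on the plus strand and by -33.2 points on the minus strand. With at least 20 reads per cytosine the run shrank to 4 CpGs, all read on the minus strand, and its difference was -32.8 points. The unweighted mean of all 16 cytosines differed by -6.22 points (exact permutation p = 0.400). The unadjusted p of this run stayed under 0.05 in 3 of the 8 fits that left out a library.

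**Figure D4:**
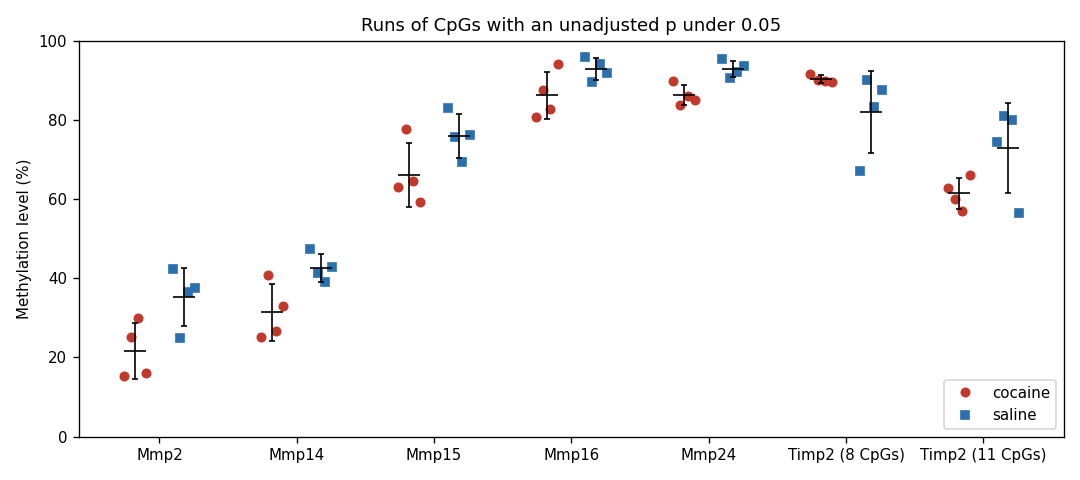
Methylation level in percent of each mouse (circles, cocaine; squares, saline), with the mean and SD of each group, in the 7 member runs with an unadjusted p under 0.05. Only in the Mmp24 run do the groups not overlap, and in the Timp2 run of 8 CpGs saline 1 lies at 67.2%.

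**Figure D5:**
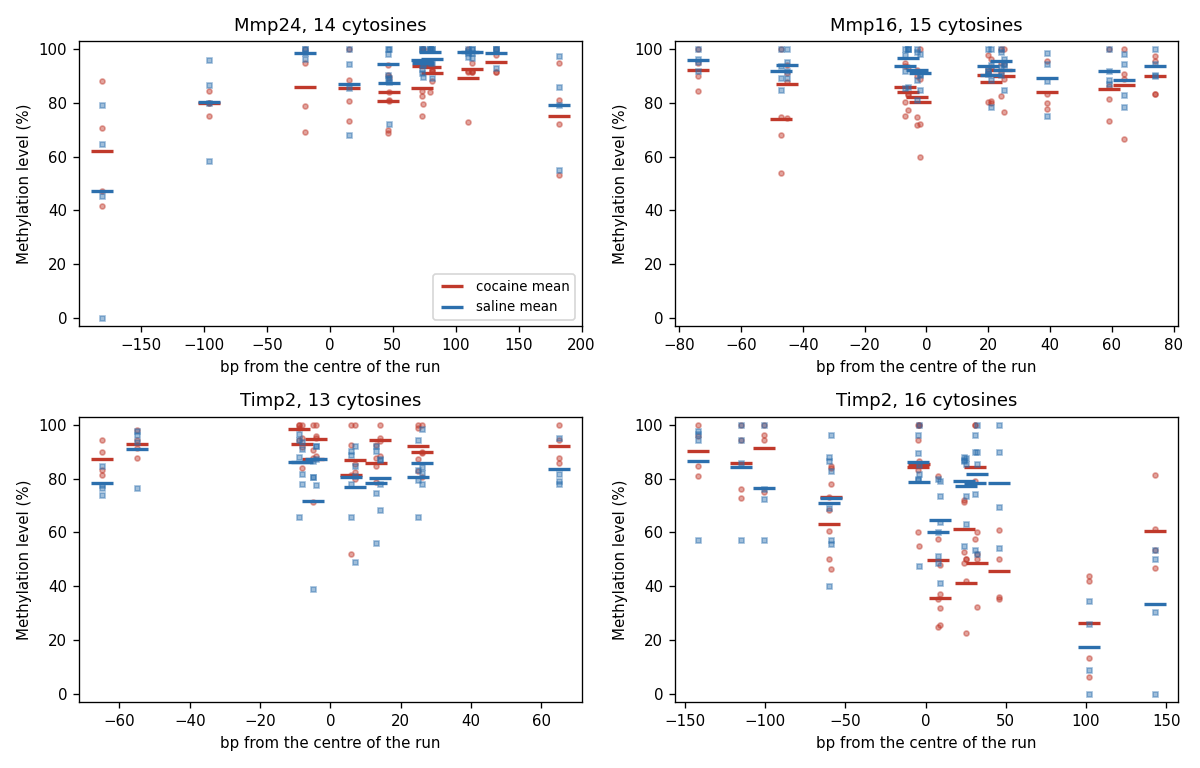
Methylation level in percent (vertical axis) of each cytosine against its distance in bp from the centre of the run (horizontal axis), for the runs of Mmp24, Mmp16 and Timp2; small points are mice and bars are group means. In Mmp16 all 15 cytosine means are lower in cocaine mice, whereas in the longer Timp2 run 8 are lower and 8 higher.

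The other members held no run at an unadjusted p under 0.05. In Mmp9, the gelatinase of synaptic plasticity, 7 of 9 tested runs had the lower mean in cocaine mice. The run of smallest p, 15 CpGs at chr2:164950268-164950581, read 9.09%, 16.9%, 18.2% and 22.15% in cocaine and 17.4%, 22.12%, 23.9% and 26.4% in saline mice. The groups overlapped, and the difference of -5.88 points had an unadjusted p of 0.0523. Over the fits that left out a library it ran from -7.73 points (without cocaine 4) to -3.38 points (without cocaine 1). In Mmp17 2 of 4 tested runs were lower, and the run of smallest p, 5 CpGs at chr5:129594584-129594722, averaged 40.8% ± 5.64 and 48.4% ± 4.196 (unadjusted p = 0.162). Timp4 had a single tested run, 3 CpGs at chr6:115250402-115250540, at 66.8% ± 4.21 in cocaine and 68.9% ± 7.80 in saline mice (unadjusted p = 0.744). The single tested Timp3 run differed by 3.06 points (unadjusted p = 0.426), and by 7.03 points without saline 1.

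Other genes of the pathway were set beside the members as a list of 48, all found in the gene table: other metalloproteinases, other inhibitors and clearance receptors, activators, related sheddases and substrates. Of their 200 tested runs, 123 (61.5%) had the lower mean in cocaine mice, and 5 were lower and 2 higher at an unadjusted p under 0.05, 3.5% in all against 5.65% over the genome. Of their 34 tested interiors 5 were lower and 0 higher at that p, against 6.15% and 0.649% of all interiors. None of their runs, ends or interiors passed the adjusted test. By list, the runs at that p were 0 of 24 for other metalloproteinases, 2 lower and 1 higher of 42 for inhibitors and clearance, 2 lower of 48 for activators and cofactors, 1 lower and 1 higher of 41 for sheddases, and 0 of 45 for substrates. At an unadjusted p under 0.01 stood a run in Lrp1, the receptor that clears Mmp2 and Mmp9 complexes from the cell surface, at 77.1% ± 9.06 against 90.1% ± 2.21 in saline mice (adjusted p = 0.876). So did the interior of Furin, the convertase that activates membrane metalloproteinases, at 26.2% ± 2.98 and 32.4% ± 2.58 (adjusted p = 0.703).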

How the data were processed

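Members and lists were chosen with earlier results of these data known. The submitters' processing notes name bcl2fastq, Bismark 22.1 and the build mm10. How reads were trimmed or duplicates handled is not given in the sources used here. The authors deposited, per cytosine and strand, a methylation level, which is a fraction from 0 to 1, and a coverage, which is a count of reads of at least 10. Level times coverage gave whole methylated reads at 100% of cytosines, within 1e-06 of the coverage. Cytosines with 10 or more reads in all 8 libraries were kept, strands apart. Reads without molecular identifiers may be copies of few molecules.

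Gene spans came from a RefSeq table of GRCm38.p6, whose primary chromosomes share mm10 coordinates; it names no exons, so exons, introns and UTRs were not placed. Runs (gaps up to 100 bp, 3 or more CpGs), gene ends (1 kb either side) and interiors (both with 5 or more cytosines) with pooled levels from 5% to 95% were tested over the whole genome. The test was quasi-binomial regression on group, with dispersion moderated by limma 3.58.1 (squeezeVar, trend on log coverage, floor of 1), an F test and Benjamini-Hochberg adjustment. Called features needed an adjusted p under 0.05 and 10 points (runs) or 5 points (ends, interiors). Level is pooled reads per mouse, and n is mice. All members are named, each with its run of smallest p and any run at an unadjusted p under 0.05; other pathway genes are named at an unadjusted p under 0.01, except 1 result that is not reported here, and the second Mmp2 run was chosen after its values were seen. The test was also run on simulated reads, drawn with the median dispersion for every run and library. These hold no library that stands apart as saline 1 does, and the outcome is not given here. Alternatives were coverage of 20, no level filter, own dispersion, limma on logit values, merged strands, a gap of 200 bp, 500 bp windows, unweighted means, the replicate number as a block, and leaving out each library.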

Additional observations from a re-analysis of the deposited data

Results flagged for a closer look

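Of 60 sets of 4 mice behind the described values, 4 held a mouse far from the other 3, and chance alone flags about 1 in 20 such sets. At the lower-coordinate end of Mmp16, saline 4 read 1.70% and the other saline mice 0.0454% to 0.129%. At the start of Timp2, saline 1 read 0.400% and the others 0.715% to 0.756%. In Timp4, saline 2 read 80.5% and the others 63.8% to 66.5%; this counts as 2 of the 4, since the interior and the run hold the same cytosines.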

How the results depend on the processing

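No run, gene end or interior of the genome was called under any alternative but 1: with the replicate number as a block, 1 run on chromosome 13, outside the members, was called. The labels give the samples only a number, and whether it marks a pairing is not known. The correlation of same-numbered libraries lay between -0.0169 and 0.0772, and 1 of 4 cocaine libraries correlated best with its own number. Such correlations cannot exclude a shared batch or day. With the block, 7 member runs had an unadjusted p under 0.05, 6 of them among the first 7. That count of 7 became 3 with own dispersions, 3 with limma on logit values and 11 without the level filter, and ran from 4 (without cocaine 3) to 9 (without saline 1) when 1 library was left out; the cause was not tested. Direction changed in 3 tested results. The interior difference of Mmp15 was 0.0624 points with at least 20 reads. That of Mmp17 ran from -2.77 to 0.356 points and that of the Timp4 run from -4.005 to 1.75 points when 1 library was left out. Among results with no test, leaving out 1 library also changed the sign at the starts of Mmp14 and Timp3, the lower ends of Mmp16 and Mmp17, the far end of Mmp15 (up to 0.921 points) and the interiors of Timp3 (up to 0.959 points) and Timp4. The Mmp2 interior was -0.868 points without cocaine 4. Ends under 5% entered the test only without the level filter, and interiors of 3 or 4 cytosines did not enter it.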
